A study of Bos taurus with 18 samples.

Results

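A total of 892 CpG pairs whose strands differed by 30 percentage points or more on average were found among 630974 CpG pairs of the bovine autosomes, which was 0.141%. A CpG pair here is a position p and its neighbour p+1, the cytosine of a CpG on each DNA strand, with no other listed position directly beside it, and with both positions listed in the same bull in at least 6 of 18 bulls. The strand difference of a bull is the methylation level at p minus that at p+1, and the pairs were chosen on the size of its mean over bulls. This choice used the values themselves, so the size and the direction of the difference are given as a description, with no test.

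The data were whole-genome bisulfite sequencing (WGBS) libraries of sperm from 18 adult Holstein bulls, 1 library per bull, with semen obtained from an artificial insemination company. Bulls were labelled high or low for 5 traits, which for all but sire conception rate refers to the predicted transmitting ability, a breeding value estimate. For sire conception rate the labels give high or low alone. Gestation length (GL) had 4 high bulls (H03, H09, L03 and L05) and 4 low bulls (H02, H05, L01 and L07). Every other trait had 3 high and 3 low bulls. For sire calving ease (SCE) the low bulls were L09, H06 and H01 and the high bulls L02, H07 and H03. For body depth (BDE) the low bulls were L02, H09 and H05 and the high bulls L08, L03 and H02. For cow conception rate (CCR) the low bulls were L09, L08 and H06 and the high bulls L06, H09 and H08. For sire conception rate (SCR) the low bulls were L01, L02 and L03 and the high bulls H01, H02 and H03. Many bulls served in the groups of several traits, and H04 and L04 had no trait label. The letters H and L of the names match the high and low groups in SCR and not in the other 4 traits. No bull carried a treatment or an engineered allele.

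The CpG dinucleotide reads the same on both DNA strands, so each CpG offers a cytosine to methylate on either strand. After replication the new strand is unmethylated, and the maintenance methyltransferase DNMT1, guided by UHRF1 to half-methylated CpGs, copies the mark from the old strand, which is why the strands of a CpG usually carry like levels. Bisulfite turns unmethylated cytosine into uracil, which is read as thymine, and each strand is read from its own fragments, so that a thymine in the genome and an unmethylated cytosine look alike on the strand concerned.

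The 18 bulls listed between 2858992 and 22048556 positions each, all with at least 10 reads, and the mean methylation level of a bull was between 76.8% and 85.0%. The number of reads was listed for 6 bulls only (H01 to H03 and L01 to L03), where positions had 12.8 to 13.7 reads on average, and the depth of the other 12 bulls is unknown. The mean strand difference over all pairs of a bull was between -0.0503 and 0.0488 points in the 18 bulls.

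Most CpG pairs had strands of like level. The median size of the mean strand difference over all pairs was 2.25 points, and 515710 pairs (81.7%) had less than 5 points. Only 1990 pairs had 20 to under 30 points, 574 had 30 to under 40 points, 172 had 40 to under 50 points, and 9 pairs had 80 points or more. The median size in the 892 strand-disagreeing pairs was 36.7 points, and the largest was 90 points. The level was lower at p in 426 of them and higher at p in 466.

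**Figure D1:**
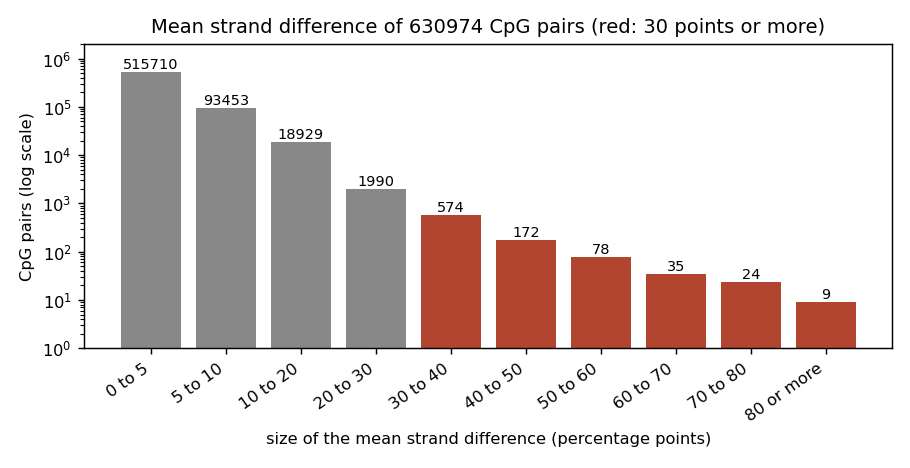
Number of CpG pairs (log scale) by the size of their mean strand difference in percentage points, over the bulls that listed both strands. The grey bars hold the pairs under 30 points, from 515710 pairs under 5 points down to 1990 pairs at 20 to under 30 points, and the red bars hold the 892 strand-disagreeing pairs.

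Pairs lay close on either side of the limit. Among pairs listed in at least 12 bulls, the 3 just inside were chr20:48543056-48543057 with a mean of -30.05 points, chr13:39720763-39720764 with 30.1 points and chr21:1421227-1421228 with 30.2 points (positions on UMD 3.1). The 3 just outside were chr14:871181-871182 with a mean of -29.97 points, chr4:110937483-110937484 with -29.9 points and chr26:34757150-34757151 with -29.9 points. The SD over bulls of these 6 pairs was between 9.82 and 17.4 points.

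The usual strand-disagreeing pair was almost fully methylated on one strand and partly methylated on the other. The more methylated strand, here called the higher strand, had a median level of 88.0% (quartiles 67.2% and 94.7%), and the lower strand had 42.1% (quartiles 23.9% and 56.6%). The higher strand was at 80% or more and the lower strand at 20% to under 80% in 520 pairs. Only 26 pairs had the higher strand at 80% or more and the lower strand under 20%, which comes nearest to a CpG methylated on 1 strand alone. In 188 pairs the higher strand was under 80% and the lower at 20% or more, and in 158 pairs the higher strand was under 80% and the lower under 20%. The mean level of both strands had a median of 63.9%, against 92.7% over all pairs. A large strand difference keeps the mean of both strands away from full methylation. The choice of pairs on that difference thus set this contrast at least in part, and nothing is read from it.

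In 27 of the 13925 pairs listed in all 18 bulls the strands disagreed, and the 4 with the largest differences in each direction are described in every bull. The 4 of one direction are not matched in size to the 4 of the other, and chr21:1449001-1449002, at -40.9 points in 18 bulls, was larger than 2 of those with the higher level at p. At chr4:29005396-29005397 the level at p was between 0 and 4% with a median of 0, whereas the level at p+1 was between 36.7% and 90% with a median of 62.6%. No bull overlapped any other between the strands, and the mean strand difference was -62.9 ± 14.2 points (SD, n = 18). The 6 bulls with listed reads had 12 to 37 reads at p and 20 to 50 reads at p+1. L02 had 0 methylated reads of 37 at p (95% Wilson interval 0 to 9.41%) and 37 of 49 at p+1 (61.9% to 85.4%).

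At chr20:48555199-48555200 the level at p was between 0 and 16.1% (median 5%) and at p+1 between 45.0% and 90% (median 66.7%), and the mean strand difference was -60.2 ± 11.8 points (SD, n = 18). At chr4:32273996-32273997, on the same chromosome as the first pair, p was between 12.9% and 35.5% (median 24.7%) and p+1 between 65.4% and 95.7% (median 81.8%), with a mean of -56.3 ± 10.2 points (SD, n = 18). At chr23:52490003-52490004 p was between 11.3% and 33.3% (median 19.9%) and p+1 between 52.0% and 82.1% (median 72.1%), with a mean of -51.0 ± 11.5 points (SD, n = 18). The strands did not overlap between bulls at any of these 3 pairs either.

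Of the 4 pairs with the higher level at p, chr29:5707279-5707280 had the largest mean, 57.5 ± 20.4 points (SD, n = 18). Its level at p was between 75% and 100% (median 90.7%), and at p+1 between 0 and 60% (median 29.6%). The lower strand ran from 0 in H02, 4% in H05 and 8.33% in L05 to 57.9% in L07 and 60% in L01, so that bulls differed far more on the lower strand than on the higher. In H02 the reads gave 0 of 18 methylated at p+1 (95% Wilson interval 0 to 17.6%), and in L01 they gave 15 of 25 (40.7% to 76.6%), intervals that do not overlap.

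At chr17:50664153-50664154 the level at p was between 66.7% and 100% (median 90%) and at p+1 between 20.8% and 58.8% (median 38.2%), with a mean of 51.5 ± 12.7 points (SD, n = 18). The strands of chr23:52338727-52338728 overlapped between bulls, with p at 50% to 96.4% (median 81.8%) and p+1 at 21.4% to 55.0% (median 41.8%), and the mean was 37.2 ± 12.5 points (SD, n = 18). At chr14:374726-374727 p was between 16.7% and 85.0% (median 43.2%) and p+1 between 1.39% and 24.0% (median 10.2%), with a mean of 35.2 ± 17.7 points (SD, n = 18). This last pair had 14 to 29 reads at p and 36 to 75 reads at p+1 in the 6 bulls, and its lowest difference was 6.67 points in H09 and its highest 78.2 points in L07.

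**Figure D2:**
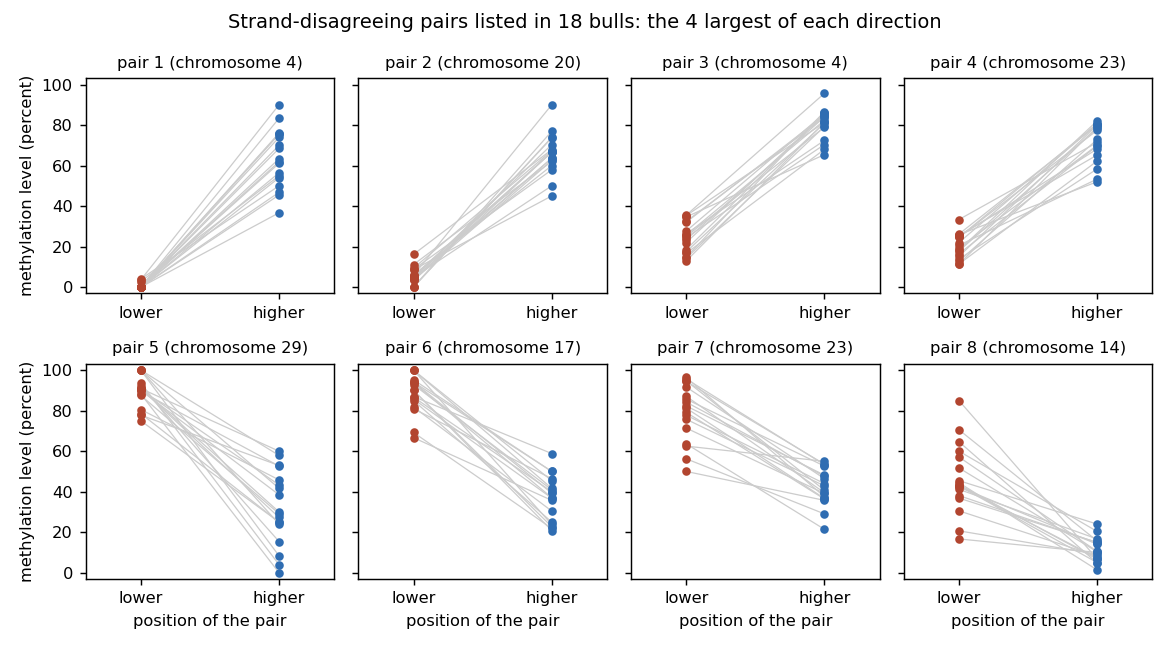
Methylation level in percent at the lower position (p, red) and the higher position (p+1, blue) of the strand-disagreeing pairs listed in all 18 bulls with the 4 largest differences in each direction, in the order of the text, with a grey line joining the strands of each bull. Every line runs the same way within a panel, and in pair 1 all 18 bulls are between 0 and 4% at the lower position.

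Nearly all bulls shared the direction of a pair's mean, which the choice of pairs on that mean largely set. The direction in bulls left out of the choice is given below. The 892 pairs gave 8153 bull and pair entries with both strands, of which 77 (0.944%) went against the direction of the pair's mean. In 803 pairs every listed bull had the same direction, and in 508 pairs (57.0%) every listed bull had a difference of 15 points or more. Of the entries, 6.30% were within 15 points of 0, 32.3% at 15 to under 35 points, 51.1% at 35 to under 65 points and 10.2% at 65 points or more in that direction. The remaining 8 entries (0.0981%) were at more than 15 points the other way. In 380 pairs (42.6%) some bulls were within 15 points of 0 and others at 35 points or more. In the other pairs the share was 5.24%. Both shares rest on the values that chose the pairs and include counting error, and nothing is read from their difference. The share was 26% with limits of 10 and 40 points and 60.5% with limits of 20 and 30 points.

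The spread between bulls, which includes the counting error of the reads, was close to that of other partly methylated pairs. With medians of 13 to 14 reads on the higher strand and 16 to 20 on the lower in the 6 bulls with reads, counting error is not small. It was not separated from differences between bulls. The SD over bulls of the strand difference had a median of 14.2 points in the strand-disagreeing pairs and 8.17 points over all pairs. Among pairs with a mean level of 25% to 80% it was 14.5 points in the 787 strand-disagreeing pairs and 14.8 points in 86766 others. Of the 180 strand-disagreeing pairs listed in at least 12 bulls, chr8:71152263-71152264 varied least, with differences between 42.2 and 64.0 points (median 52.1) and a mean of 52.9 ± 6.72 points (SD, n = 13). The next, chr15:22008854-22008855, had differences between 71.0 and 97.6 points (median 84.7) and a mean of 84.1 ± 7.64 points (SD, n = 12). Neither pair had a bull below 42.2 points.

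The largest spread among the 180 strand-disagreeing pairs listed in at least 12 bulls was at chr17:14229617-14229618. Its differences ran from -85.2 to 4.49 points (median -35.1), with a mean of -37.1 ± 24.2 points (SD, n = 17). There p+1 stayed between 81.0% and 100% in every listed bull while p ran from 14.8% in H08 and 15.4% in L05 to 92.6% in H09 and 92.9% in L01. In L01 the strands were at 39 methylated of 42 reads (95% Wilson interval 81.0% to 97.5%) and 38 of 43 reads (75.5% to 94.9%), which cannot be told apart at this depth. In L02 p was at 12 of 27 reads (27.6% to 62.7%) and p+1 at 30 of 31 (83.8% to 99.4%), which do not overlap. The second widest, chr3:86720430-86720431, had differences from -0.535 to 80 points (median 43.5) and a mean of 42.1 ± 22.7 points (SD, n = 15), with H03 the only bull below 0.

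The disagreement was also present in a bull that had no part in the choice. Each bull in turn was left out, pairs were chosen at 30 points on at least 6 of the others, and their difference in the bull left out was taken in the direction set by the others. The median was between 33.9 points in L06 and 40.9 points in H07 over 147 to 564 pairs, against a median of 0 in every bull for all other pairs. The direction was kept by 94.9% to 99.3% of the chosen pairs, and 85.1% to 92.9% reached 15 points. The 2 bulls without a trait label lay within this range, H04 at 40 points and L04 at 39.3 points.

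**Figure D3:**
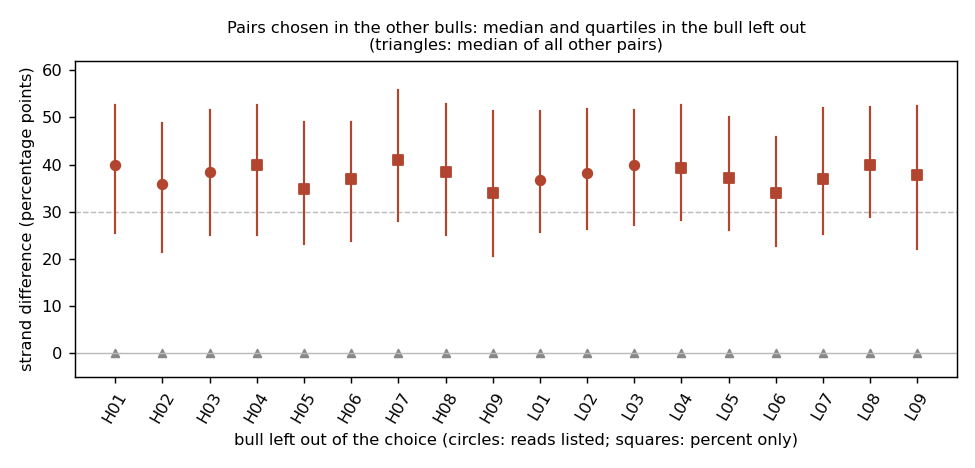
Strand difference in percentage points, in the direction set by the other bulls, of the pairs chosen without the bull named on the x axis, as median (circle where reads are listed, square where not) and quartiles (line), with the median of all other pairs as a triangle. The 18 medians are between 33.9 and 40.9 points, and the triangles are at 0.

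The disagreement crossed the kinds of file as well. Of 246963 pairs listed in at least 3 of the 6 bulls with reads and at least 3 of the other 12, 596 had a mean of 30 points or more in the 6 bulls. In the 12 bulls these had a median of 29.4 points in the same direction (quartiles 19.7 and 39.2), 565 kept the direction and 291 (48.8%) reached 30 points again. Of 142600 pairs listed in at least 6 of the 12 bulls and at least 3 of the 6, 310 were chosen in the 12 bulls. All 310 kept the direction in the 6 bulls, with a median of 36.2 points (quartiles 28.2 and 46.4), and 218 (70.3%) reached 30 points again. The 2 shares rest on different numbers of bulls and are not compared.

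Strand-disagreeing pairs were listed in a median of 8 bulls, and all pairs in 7. Their share was 0.0760% of pairs listed in 6 bulls (203 of 266996), 0.374% of those listed in 11 bulls (58 of 15488) and 0.194% of those listed in all 18 bulls (27 of 13925). Their share was thus highest at intermediate numbers of bulls.

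Bulls that listed only 1 strand of a strand-disagreeing pair mostly listed the lower strand. Over all 18 bulls the lower strand alone was listed in 28.9% of entries (4646) and the higher strand alone in 10.5% (1686), with both in 50.8% and neither in 9.78%. Over all pairs these shares were 15.5% for the lower strand alone and 15.7% for the higher strand alone. In each of the 18 bulls the lower strand alone was listed 2.28 to 3.47 times as often as the higher strand alone, and in the pairs that did not disagree 0.977 to 1.01 times as often. These entries had no part in the choice of pairs. Their levels had a median over entries of 41.7% where the lower strand alone was listed and 80% where the higher strand alone was. The medians of 42.1% and 88.0% for strands listed together are over pairs, of means over bulls. The entries are also spread unevenly over the kinds of pair given below, so these levels are not compared. A position is listed from 10 reads, and no listed count is above 100, so a strand missing from a file can be one with fewer reads than 10 or one with more than 100.

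The listed reads leaned the same way. In the 6 bulls with reads the higher strand of strand-disagreeing pairs had a median of 13 to 14 reads and the lower strand 16 to 20 reads, over 155 to 564 pairs per bull. The higher strand held a median of 42.4% to 47.8% of the reads of a pair, below 50% in 6 of 6 bulls, and in the pairs that did not disagree it held 50% in each bull. This share was 47.6% in entries with a difference under 15 points, 45.8% at 15 to under 35 points, 43.5% at 35 to under 65 points and 42.9% at 65 points or more. The part of read depth in the strand difference was not tested.

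The kinds of pair differed in this imbalance. In the 26 pairs with the higher strand at 80% or more and the lower under 20%, the higher strand held a median of 20.7% to 37.5% of the reads in the 6 bulls, and the lower strand alone was listed 8.60 times as often as the higher strand alone (172 and 20 entries). In the 520 pairs with the higher strand at 80% or more and the lower at 20% to under 80%, it held 41.2% to 47.7%, and the ratio of entries was 3.77 (3043 and 808). In the 158 pairs with the higher strand under 80% and the lower under 20%, it held 47.2% to 50.7%, and the ratio was 1.09 (501 and 459). In the 188 pairs with the higher strand under 80% and the lower at 20% or more, it held 41.4% to 50%, and the ratio was 2.33 (930 and 399). The first 1200000 bp of BTA 14, described below, held 48 of the 158 pairs and 32 of the 188. Without that region the ratio was 14.6 in 24 of the 26 pairs (161 and 11), 3.83 in 512 of the 520 pairs (2994 and 782), 1.60 in 110 of the 158 pairs (392 and 245) and 3.32 in 156 of the 188 pairs (853 and 257). The higher strand then held 20.7% to 37.5%, 41.2% to 47.6%, 45.7% to 50% and 40% to 50% of the reads in these 4 kinds, so that the ranges of the last 3 overlapped. The 158 pairs with the lower strand under 20% lay among more listed positions, a median of 19.5 within 200 bp. This median was 6 in the 520 pairs, 10 in the 26 pairs, 9.5 in the 188 pairs and 10 over all pairs.

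**Figure D4:**
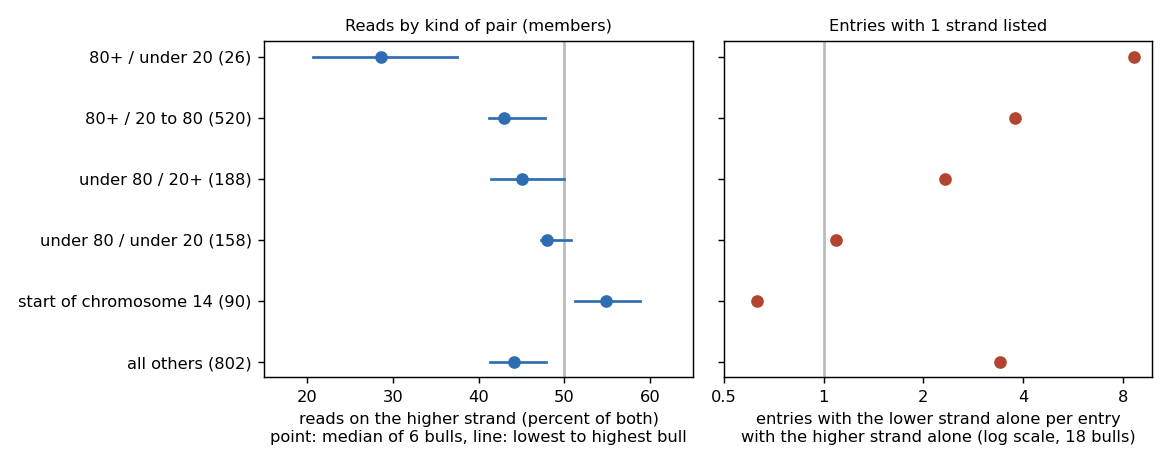
Left, share of a pair's reads on the higher strand in percent (point, median of 6 bulls; line, lowest to highest bull), and right, number of entries with the lower strand alone per entry with the higher strand alone (log scale, 18 bulls), for the kinds of strand-disagreeing pair, named by the level of the higher and the lower strand in percent, with the number of pairs in parentheses. The share of reads is below 50% in every kind of level by the median of the bulls, and above 50% in the 90 pairs at the start of chromosome 14. Those 90 include the locus of 13 pairs on chromosome 14, without which the share is not given.

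Strand-disagreeing pairs lay near one another. Another of the 892 was within 200 bp of 285 of them (32.0%), and of 0.424% of all pairs. Joined at gaps of up to 1000 bp they formed 692 loci, of which 563 held 1 pair and 129 held 2 or more, 329 pairs together. Of 168 neighbours within 200 bp of each other, 159 had the same direction, at a median distance of 45 bp. Pairs so close can be read on the same fragments, so neighbours are not separate observations. Pairs beside the strand-disagreeing ones that did not reach 30 points had a median size of the mean strand difference of 4.02 points. Over all pairs the neighbours had 1.74 points. These neighbours were not matched for methylation level, and partly methylated pairs vary more between bulls, so nothing is read from the difference. All neighbours of strand-disagreeing pairs within 200 bp, strand-disagreeing ones included, had a median level of 57.3%, and neighbours over all pairs 13.1%. Both medians count a pair once per neighbour, which gives more weight to stretches dense in pairs. Counted once each, all pairs had a median level of 92.7%, so nothing is read from the difference between neighbours.

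By chromosome, the share of strand-disagreeing pairs was highest on BTA 14, with 117 of 26619 pairs (0.440%), followed by BTA 21 with 49 of 21908 (0.224%). It was lowest on BTA 16, with 20 of 26402 (0.0758%), and the median over the 29 autosomes was 0.134%. On BTA 14 the pairs lay at the start of the chromosome. The first 1200000 bp, a limit set after the values were seen, held 90 of 5679 pairs (1.58%) in 48 loci, and the rest of the chromosome 27 of 20940 (0.129%). The first 1200000 bp of the other 28 autosomes held 20 of 10225 pairs (0.196%).

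The pairs at the start of BTA 14 were less methylated than the others, with a median of 59.2% on the higher strand and 18.1% on the lower, against 90% and 45.0% in the other 802 pairs. The imbalance of reads was turned round in them. The higher strand held a median of 51.2% to 58.8% of the reads in the 6 bulls, against 41.3% to 47.8% in the other pairs, and the ranges of the bulls did not overlap. The lower strand alone was listed 0.629 times as often as the higher strand alone (246 and 391 entries), against 3.40 times in the other pairs (4400 and 1295). A single locus of 13 pairs, described below, gave 14 of the 246 and 110 of the 391 entries. The values of the region without this locus are not given.

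In total, 539 of 19613 windows of 100000 bp held a strand-disagreeing pair. The 3 windows with most were chr14:600001-700000 with 20 of 550 pairs in 4 loci, chr14:300001-400000 with 20 of 638 pairs in 8 loci, and chr15:22000001-22100000 with 13 of 47 pairs (27.7%) in 1 locus. The first 2 differed in direction. The level was higher at p in 17 of the 20 pairs of chr14:600001-700000 and in 3 of the 20 pairs of chr14:300001-400000.

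The locus on BTA 15 was an unbroken run of strand-disagreeing pairs. All 13 pairs from chr15:22008707 to chr15:22009094, a stretch of 388 bp, had the higher level at p, with means between 36.5 and 84.1 points over 9 to 13 bulls. The level at p was between 82.9% and 98.2%, near full methylation in each pair, and the level at p+1 was between 8.74% and 59.4%. All 142 entries of 16 bulls had the same direction, and H01 and L03 listed no pair there with both strands. These entries are not separate observations, since pairs so close can be read on the same fragments, and each pair was chosen on its mean. H08, L04 and L06 listed all 13 pairs, with differences between 47.8 and 90.3 points in H08 (median 70.4), between 36.7 and 86.7 points in L04 (median 67.4) and between 37.5 and 74.2 points in L06 (median 54.6).

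Beyond its last pair the strand differences of the BTA 15 locus were smaller and of the opposite direction. The next pair, chr15:22009127-22009128, was at 13% on the higher strand and 7.35% on the lower (mean difference -5.67 ± 9.26 points, SD, n = 12), and the one after it, chr15:22009132-22009133, at 89.6% and 84.2% (-5.38 ± 10.8 points, SD, n = 12). The 3 pairs that followed, starting at 22009148, 22009192 and 22009425, had means of -13.0, -15.8 and -9.88 points. The reads of the locus were uneven. The higher strand had a median of 12 reads and the lower 35 reads over 33 entries of 4 bulls, the higher strand held 17.1% to 33.7% of the reads by the median of a bull, and the lower strand alone was listed in 83 entries against 1 for the higher strand alone. At its largest pair, chr15:22008854-22008855, L01 had 11 methylated of 12 reads at p (95% Wilson interval 64.6% to 98.5%) and 7 of 64 at p+1 (5.40% to 20.9%).

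The other locus of 13 strand-disagreeing pairs, on BTA 14, was of another kind. It ran from chr14:603526 to chr14:604618 and held 18 pairs, of which 12 strand-disagreeing pairs had the higher level at p. The remaining strand-disagreeing pair, chr14:603712-603713, had the higher level at p+1, at 1.32% at p and 35.2% at p+1 (mean -33.9 ± 9.27 points, SD, n = 9). The 5 pairs of the locus under 30 points were also higher at p+1, by 17.2 to 26.3 points on average. Neighbouring pairs thus had opposite directions, as at chr14:603699-603700 with 41.8 ± 9.65 points (SD, n = 8) and chr14:603720-603721 with 41.8 ± 15.9 points (SD, n = 9) on either side of chr14:603712-603713. All 107 entries of the 13 pairs kept the direction of their pair's mean in 17 bulls, and L08 listed none of them with both strands. The choice of each pair on its mean largely set this.

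The reads of this locus leaned to the higher strand. It had a median of 46 reads and the lower strand 11 reads over 28 entries of 6 bulls, and it held 75.6% to 83.3% of the reads by the median of a bull. The higher strand alone was listed in 110 entries and the lower strand alone in 14. The largest pair, chr14:603569-603570, had differences between 35.7 and 85.0 points (median 64.2) and a mean of 63.3 ± 17.1 points (SD, n = 7), with the higher strand at 71.9% and the lower at 8.55%.

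**Figure D5:**
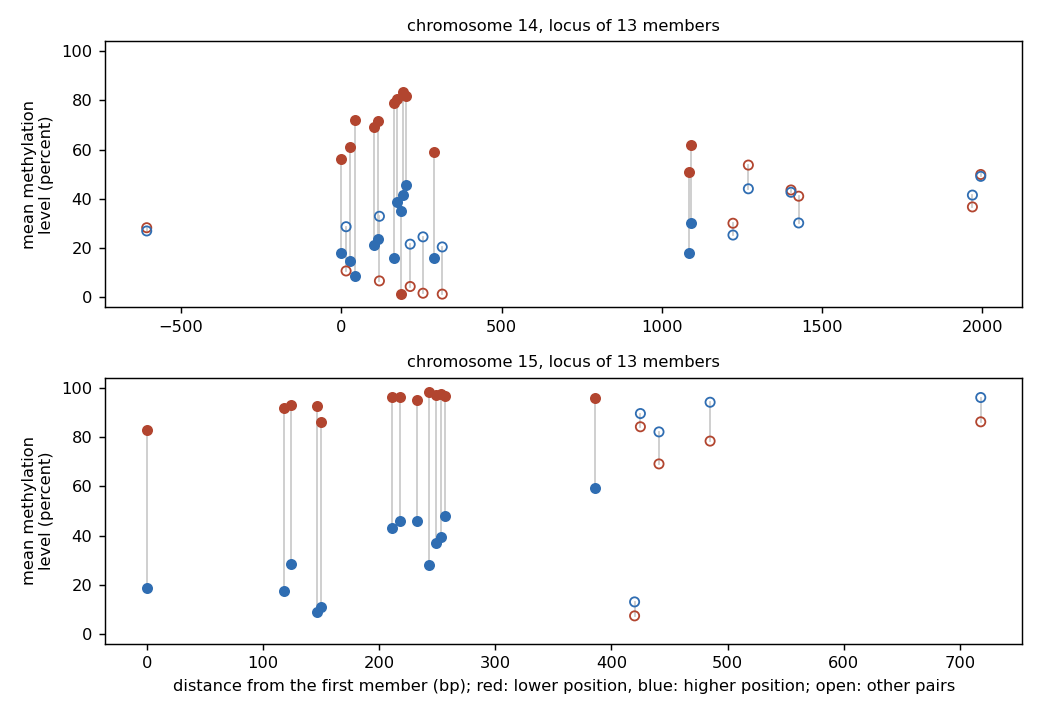
Mean methylation level in percent over the listed bulls at p (red) and p+1 (blue) of each pair, by distance in bp from the first strand-disagreeing pair, in the 2 loci of 13 strand-disagreeing pairs and 1000 bp on either side (filled, strand-disagreeing pairs; open, other pairs; the grey lines join the strands). On chromosome 15 the red points are near the top in all 13 pairs, at 82.9% to 98.2%, and on chromosome 14 red is the upper point in 12 pairs and the lower in 1, as it is in the 5 open pairs between them.

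No strand-disagreeing pair lay in a gene that the study had fine-mapped for gestation length. With 2000 bp on either side, 16 of the 25 genes held 259 pairs, and 0 of these had 30 points or more, where 0.141% of all pairs did. Had the 259 pairs been separate observations, a count of 0 would allow a share of up to 1.16% at about 95% confidence. Of them, 110 lay at WWP2, and pairs close together are not separate, so the limit can be wider. The largest mean difference was 12.8 points at chr18:37031813-37031814, over 7 bulls, at WWP2, a ubiquitin ligase. PCDHA13, a protocadherin, and CDKL1, a kinase, had 11.4 points each at most. The other 9 genes, among them ZNF613, a zinc finger gene, and DGAT1, the enzyme of the last step of triglyceride synthesis, held no pair of the rule.

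Whether strand-disagreeing pairs differed between high and low bulls of a trait was tested with limma's moderated test on the percents, fitted over all pairs listed on both strands in at least 3 bulls of each group, with Benjamini-Hochberg adjustment over all of them. The tests were made for the strand difference and for the mean of both strands of 5 traits, 10 comparisons in all, which share bulls. At an adjusted p under 0.05 no pair was called in any comparison by limma, strand-disagreeing or not (0 of 93240 in GL, 34064 in SCE, 38568 in BDE, 27942 in CCR and 40417 in SCR, a background of 0%). The logistic F test on the reads of the SCR bulls also called 0, with 752 pairs under an unadjusted p of 0.05 for the strand difference and 464 for the mean.

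Between 5 and 9 strand-disagreeing pairs had an unadjusted p under 0.05 for the strand difference. In GL these were 9 of 127, against a background of 5.12% (4775 of all pairs), in SCE 7 of 54 against 4.98% (1696), in BDE 8 of 55 against 5.11% (1972), in CCR 5 of 55 against 4.91% (1372) and in SCR 8 of 53 against 5.20% (2103). Pairs under 30 points with a mean level of 25% to 80% vary more between bulls than all pairs do, and of those 8.67% in GL, 9.16% in SCE, 9.08% in BDE, 8.75% in CCR and 10.2% in SCR had such a p. With each pair's own variance in place of limma's moderated one, the counts of strand-disagreeing pairs were 1 of 127 in GL, 3 of 54 in SCE, 3 of 55 in both BDE and CCR and 4 of 53 in SCR, and the shares of the pairs of intermediate level were between 4.73% in BDE and 5.42% in SCR. The logistic F test on reads gave 2 of 53 in SCR (3.77%). By that test 1.86% of all pairs and 1.21% of the pairs of intermediate level had such a p. Leaving out 1 bull, which changes the pairs that can be tested, moved the share with limma's moderated test by over 1.5 times in 4 traits. In GL it went from 7.09% to 3.79% without L01 (10 of 264), against 9.30% of the pairs of intermediate level. In SCE it went from 7 of 54 pairs to 21.6% without L02 (24 of 111), against 10.01%. Without L09 the SCE share was 8.51% (8 of 94), against 9.98%. In CCR it went from 9.09% to 14.4% without L06 (20 of 139), against 9.41%. In SCR it went from 15.1% to 8.04% without L01 (9 of 112), against 9.80%. Of all pairs, 4.53% to 5.42% had such a p in these cases. The strand-disagreeing share was thus above that of the pairs of intermediate level in SCE without L02 and in CCR. It was below it in the other cases. The smallest adjusted p of a strand-disagreeing pair was 0.944, in SCE.

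The pairs with the smallest p show the size that 3 or 4 bulls per group left uncalled. In GL, chr17:51388606-51388607 had strand differences of -45.2, -30.6, -48.5 and -37.1 points in the high bulls H03, H09, L03 and L05, and of -17.8, -32.2, -19.7 and -17.7 points in the low bulls H02, H05, L01 and L07. The groups overlapped at H09 and H05, and the high group minus the low group was -18.5 ± 5.14 points (SE, limma, adjusted p = 0.958, n = 4 and 4). The other 2 were chr24:62389236-62389237, at -41.2 points in high and -6.47 points in low bulls (n = 4 and 3), and chr21:1449001-1449002, at -44.2 and -27.1 points (n = 4 and 4). At the first of these the low bulls were at -21.3 points in H02, -19.8 in L07 and 21.7 in H05, which went against the pair's mean, and L01 did not list both strands. Without H05 the low mean was -20.5 points, and without H02 or L07 it was 0.934 or 0.197 points.

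In SCE, chr21:1421630-1421631 was at 24.0 points in high and 51.3 points in low bulls, a difference of -27.3 ± 5.70 points (SE, limma, adjusted p = 0.944). It was followed by chr7:12094693-12094694, at -44.4 and -23.8 points, and chr3:9535949-9535950, at -73.7 and -58.3 points. In BDE, chr4:28974175-28974176 was at -39.4 points in high and -21.7 points in low bulls, chr14:917802-917803 at -43.1 and -16.4 points, and chr19:42098691-42098692 at 17.7 and 37.1 points (limma, adjusted p = 0.967 for each). In CCR, chr21:1543999-1544000 was at -24.4 points in high and -48.9 points in low bulls, chr15:56894053-56894054 at 47.7 and 76.6 points, and chr10:20615000-20615001 at 59.7 and 39.8 points (limma, adjusted p = 0.965 for each).

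In SCR, chr17:52462260-52462261 was at -24.6 points in high and -48.2 points in low bulls, and chr8:71004188-71004189 at -4.37 and -34.7 points. The high bulls of the latter were at 3.64 points in H01 and 7.51 in H03, both against the pair's mean, and at -24.2 points in H02, without which their mean was 5.57 points. Without H01 it was -8.37 points and without H03 -10.3 points. The third was chr4:32273996-32273997, 1 of the 8 pairs described in every bull above, at -40.9 and -61.4 points (limma, adjusted p = 0.945 for each of the 3). None of these differences passed the adjustment. The group means of the strand difference had the same direction in both groups of all 15 pairs, which the choice of pairs on their mean over bulls largely set. Single bulls went against the direction of the pair's mean in 3 entries, H05 at chr24:62389236-62389237 and H01 and H03 at chr8:71004188-71004189.

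The strand difference was not larger in the same group, high or low, in every trait, and this was not tested. Taken in the direction of each pair's mean, it was larger in the high group in 67 of 127 pairs in GL, 27 of 54 in SCE, 36 of 55 in BDE, 22 of 55 in CCR and 26 of 53 in SCR. The median difference between the groups was 0.778 points in GL, -0.342 in SCE, 6.32 in BDE, -2.39 in CCR and -0.101 in SCR. The median strand difference of a bull over its strand-disagreeing pairs was between 36.5 and 42.9 points in the 18 bulls. It was 38.5 to 41.4 points in high and 36.9 to 39.6 points in low GL bulls, which overlap, and 41.4 to 42.9 in high and 38.3 to 40.3 in low SCE bulls, which do not. The bulls of the other 3 traits overlapped. These medians rest on the values that chose the pairs, and on different pairs in each bull. With the bull left out of the choice, the medians of the SCE groups overlapped, at 38.2 to 40.9 points in high and 36.8 to 40 points in low bulls.

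For the mean of both strands, 13 of 55 strand-disagreeing pairs had an unadjusted p under 0.05 in BDE, against a background of 7.39% (2849 of all pairs), and these 13 pairs lay in 11 loci. The level was higher in high BDE bulls in 11 of the 13 pairs and lower in 2. No such split is given for the other pairs, and the 13 pairs rest on the same bulls, so nothing is read from this direction. The share was 23.6% of the strand-disagreeing pairs in BDE and 18.5% of the pairs under 30 points with a mean level of 25% to 80%. With each pair's own variance the count was 8 of 55 strand-disagreeing pairs and 10.7% of the pairs of intermediate level. Without the bull H09 the share was 12.9% of the strand-disagreeing pairs (18 of 139), below the 14.9% of the pairs of intermediate level.

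In CCR the count was 9 of 55 (16.4%) against a background of 6.15% (1719), and 11.1% of the pairs of intermediate level had such a p. Of the 9 pairs, 1 was higher and 8 were lower in high bulls, a split that again has none of the other pairs beside it. With each pair's own variance it was 3 of 55 in CCR, a share of 5.45% against 5.98% of the pairs of intermediate level, and on the logit scale it was 5 of 55 (9.09%) against 7.61%. Without H09 it was 7.92% (16 of 202), without L06 8.63% (12 of 139) and without L08 18 of 180, against 11.6%, 10.5% and 12.3% of the pairs of intermediate level. The counts in the other traits were 7 of 127 in GL against 4.21% (3925), 2 of 54 in SCE against 6.07% (2068) and 3 of 53 in SCR against 5.64% (2279). Their shares of 5.51%, 3.70% and 5.66% were below the 7.02%, 10.6% and 9.80% of the pairs of intermediate level. On the logit scale this order was turned in SCE, at 5.56% (3 of 54) against 5.37%, and in SCR, at 5.66% against 5.53%. It was kept in GL, at 3.15% against 4.59%. Leaving out 1 bull moved the 3 shares on the percent scale by over 1.5 times and turned their order in 3 of 6 such cases. In GL the share was 9.66% without H09 (31 of 321) against 8.86% of the pairs of intermediate level, and 34 of 308 pairs without H02 against 8.55%. In SCE it was 12.8% without H06 (10 of 78) against 12.3%, and 9.91% without L02 (11 of 111) against 12.6%. In SCR it was 10.4% without H01 (15 of 144) against 11.4%, and 10.3% without H03 (8 of 78) against 10.7%. The smallest adjusted p of a strand-disagreeing pair in the 5 traits was 0.295, at chr21:2073887-2073888 in BDE, with 54.1% in high and 33.9% in low bulls, a difference of 20.2 ± 4.47 points (SE, limma, n = 3 and 3).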

How the data were processed

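Percent methylation per position was measured by WGBS in sperm of 18 bulls. Per the labels and the study's methods, the authors checked reads with FastQC 0.11.2, trimmed them with Trim Galore 0.4.0, mapped them to UMD 3.1 with Bowtie2 and called cytosines with Bismark 0.14.5, and kept positions with at least 10 reads. The deposited percent values are methylated reads over all reads, and the read counts deposited for 6 bulls run from 10 to 100. Depth is unknown for 12 bulls, and intervals cover counting error only.

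Pairs and strands were matched by position in Python 3.11.15 (NumPy 2.4.6, pandas 2.3.3, SciPy 1.17.1). Position p was taken as the lower coordinate, and sequence was not used here. The percents were tested in R 4.3.3 with limma 3.58.1, called at an adjusted p of 0.05, on the percents, since counts were listed for only 6 bulls. The code was tested on simulated data. Bulls are the replicates, and no bull's percents between 10 and 90 were identical to another's at more than 1.72% of shared positions. Other chromosomes were left out. Alternatives were other limits, bulls, file kinds and tests, with each bull left out in turn. The strand-disagreeing pairs, lists and tests were chosen with earlier results of these data known.

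Named pairs were the 4 largest strand-disagreeing pairs of each direction listed in all 18 bulls, 3 pairs either side of 30 points, the 2 of smallest and of largest SD listed in at least 12 bulls, the 3 of smallest adjusted p per trait for the strand difference, the 3 windows with most of them, and the chromosomes with the highest and lowest share. Other named pairs (both loci of 13, chr21:2073887-2073888 and BTA 21) were chosen after their values were seen. Gene positions on UMD 3.1 came from the study's list of fine-mapped genes.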

Additional observations from a re-analysis of the deposited data

Results flagged for a closer look

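In 49 groups of 4 GL bulls examined (the median difference of a bull, the median in a bull left out, the ratio of entries with 1 strand, and the named pairs), 1 held a bull that stood apart from the other 3 by Dixon's criterion, which flags about 1 in 20 groups by chance. At chr17:51388606-51388607, H05 had a strand difference of -32.2 points, whereas the other low GL bulls, H02, L01 and L07, were at -17.8, -19.7 and -17.7 points. H05 lists no read counts.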

How the results depend on the processing

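The number of strand-disagreeing pairs, 892, followed the limits of the rule. It was 2882 at 20 points, 318 at 40 points, 1690 with at least 4 bulls, 180 with at least 12 bulls, 558 in the 12 bulls without listed reads and 132 with positions of 15 reads or more in the 6 bulls with reads. It was 968 with the median over bulls, 663 without other positions within 10 bp, 661 in the 6 bulls with reads, 802 without the first 1200000 bp of BTA 14 (chosen after seeing the data), and 783 to 884 with each of the 18 bulls left out. The share with the lower level at p was 45.3% to 51.5% over all of these settings. The lower strand alone was listed 2.72 times as often as the higher strand alone by the median of the bulls, 2.68 times in the 6 bulls with reads alone (also chosen after seeing the data), 3.33 times with positions of 15 reads or more in the 6 bulls and 3.35 times without the start of BTA 14. The median in a bull left out was 37.2 points with at least 12 of the other bulls, against 38.0 points. Of 101 trait alternatives, 96 called no pair. A single pair (1) was called in GL for the mean on the logit scale and without L01, and in SCE and in BDE for the strand difference without moderation of the variance, and 2 pairs were called in SCR for the mean without moderation. Leaving out a bull gave 0 to 1 calls in GL for the mean and 0 elsewhere. None of the pairs called was strand-disagreeing in any of the 101, and the smallest adjusted p of a strand-disagreeing pair was 0.277. No paired analysis was possible because the labels give the trait groups no shared replicate numbers.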
